A study of Mus musculus with 16 samples.

Results

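The genes described here were the 10 genes of the creatine kinase and nucleotide shuttle system that had been named for this purpose by symbol (Ckm, Ckmt2, Ckb, Ckmt1, Slc6a8, Gatm, Gamt, Ak1, Slc25a4 and Slc25a5), of 55487 genes in the count table. Their Ensembl identifiers were matched to symbols, and all 10 were present. RNA was taken from the heart apex of male mice 4 weeks after surgery and sequenced after poly(A) selection, with 4 libraries in each of 4 groups. The groups were WT mice after sham surgery (Ctrl sham), CARDINAL-KO mice after sham surgery (KO sham), WT mice after transverse aortic constriction (Ctrl TAC) and CARDINAL-KO mice after transverse aortic constriction (KO TAC). The constriction makes the heart pump against a raised pressure. CARDINAL is a long noncoding RNA, Gm12295 in the mouse annotation, and its deletion was made with CRISPR/Cas9 and is not limited to heart cells. Strain and age are not given in the labels.

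Heart muscle burns ATP at a high rate and holds little of it. Creatine kinase moves the phosphate of ATP onto creatine near the mitochondria and back onto ADP at the myofibrils and ion pumps, so that phosphocreatine acts as a buffer and carrier of energy. Muscle cells do not make their own creatine in quantity but import it from the blood, adenylate kinase recovers ATP from pairs of ADP molecules, and the adenine nucleotide translocases exchange ADP and ATP across the inner mitochondrial membrane. In the failing or overloaded heart, the muscle and mitochondrial isoforms of creatine kinase are known to fall and the brain isoform, which the fetal heart also uses, to rise.

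The libraries held 53169437 to 79404714 counts each, and the 10 genes together took 0.686% to 0.791% of them. Nothing in the labels names separate litters or days, so p-values measure the spread between these samples. CARDINAL itself was counted 173 to 456 times in the 8 Ctrl libraries and 17 to 35 times in 7 of the 8 KO libraries. The library labelled KO TAC 4 held 377 CARDINAL counts, against its label. The calls, ratios, shares and gene lists of KO TAC are therefore also given without it, and the values of single libraries show it beside the others. Ctrl TAC 2 stood apart through traces of other tissues: its summed level of 10 skeletal muscle markers was 6.32 CPM (counts in 1000000 of the scaled library) against at most 2.52 in the other 15 libraries, and its nerve and glia markers summed to 48.2 CPM against at most 32.8. The animal numbers in the sample titles also fell unevenly over the groups. Numbers beginning with 25 belonged to Ctrl TAC 2, 3 and 4 and to KO TAC 4, and numbers beginning with 33 to Ctrl sham 4 and to KO sham 1, 2 and 3. What these number series stand for is not stated.

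In KO mice, Ckm, Ckmt2, Ak1 and Slc25a4 fell with TAC and Ckb, Slc6a8 and Gatm rose, by 9.78% (Ak1) to 75.6% (Gatm) of the sham level, while Ckmt1, Gamt and Slc25a5 did not pass the test. In Ctrl mice only Ckb and Slc6a8 passed the test, and both rose. Of 16 fits that left out 1 library, 5 called Ak1 in KO and 12 called Slc6a8 in Ctrl. No gene of the 10 passed the test for an interaction of genotype and surgery. The unlike numbers of calls therefore do not show that the genotypes responded differently. After TAC, Ckm and Ak1 were lower in KO than in Ctrl by 13.5% and 14.1%, but these calls were lost in most of the alternative fits. In sham-operated mice no gene of the 10 passed the test between genotypes.

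**Figure D1:**
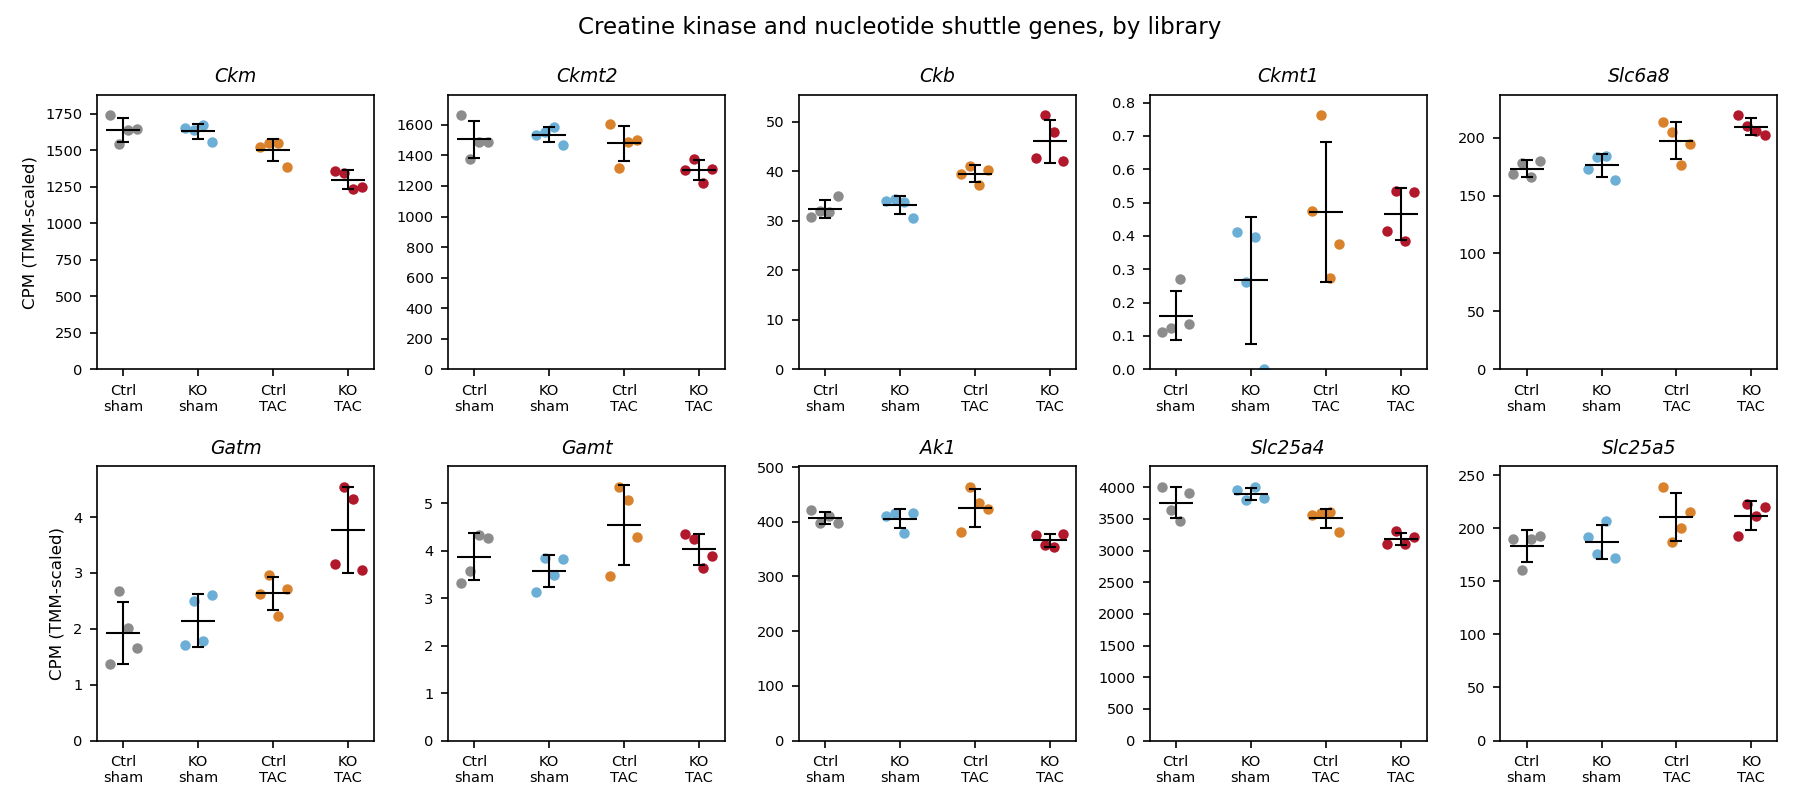
CPM scaled by the trimmed mean of M values (TMM), on linear axes from 0, for each of the 10 genes; every point is 1 library of the 4 groups, and the line and bars are the mean and SD of 4 libraries. Ckm in the 4 KO TAC libraries sits between 1238 and 1359.6 CPM, under all 12 other libraries, and Ckb sits between 42.0 and 51.3 CPM, above all 12 others.

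Across all genes, 18275 passed the filter on low counts, among them all 10 of the set. Ckmt1 is the thinnest of them, with 0 to 51 counts per library. A call here means an adjusted p under 0.05 in edgeR's quasi-likelihood test with Benjamini-Hochberg adjustment over all 18275 genes. For TAC against sham in Ctrl, 2 of 10 genes were called higher, where 10.4% of all genes were, and 0 lower, where 9.6% of all genes were. For TAC against sham in KO, 3 of 10 were called higher against a background of 17.8%, and 4 of 10 lower against 16.5%. For KO against Ctrl after TAC, 0 of 10 were called higher (background 1.36%) and 2 of 10 lower (background 1.32%). The median log2 change of the 10 genes was 0.19 in Ctrl and 0.18 in KO for TAC against sham, with medians over all genes of 0.004 and -0.004. Rises and falls are mixed in the set, with 7 of the 10 log2 values above 0 in Ctrl and 6 in KO.

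Per length of transcript, the order of the 10 genes was alike in every group. Levels between genes are given as CPM per kilobase of the principal transcript in the GENCODE M21 annotation, the longest where several are marked as principal. In Ctrl sham, Slc25a4 led with 1953 ± 129 (SD, n = 4), followed by Ckmt2 with 1012 ± 79.8, Ckm with 598 ± 29.6, Ak1 with 195 ± 5.36, Slc25a5 with 148 ± 12.1, Slc6a8 with 52.3 ± 2.14, Ckb with 21.97 ± 1.23, Gamt with 3.92 ± 0.504, Gatm with 0.808 ± 0.233 and Ckmt1 with 0.0993 ± 0.0455. The lowest 3 were Ckmt1 and both enzymes that make creatine, Gatm and Gamt. Ak1 and Slc25a5 were the only neighbours in this order whose libraries overlapped, and they did so in Ctrl TAC, where Ak1 ran from 183 to 223 and Slc25a5 from 151 to 193, and in KO TAC, where Ak1 ran from 169.5 to 181 and Slc25a5 from 156 to 179.8. The order of Ckmt2 and Ckm depends on the length used, because the annotated principal transcript of Ckm is 2742 bases long around a coding sequence of 1143 bases. Counted per coding length, Ckm made up 54.0% and Ckmt2 44.9% of the creatine kinase transcripts in Ctrl sham, against 36.7% and 62.0% per length of the principal transcript.

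The creatine kinases come as cytosolic subunits, Ckm of muscle and Ckb of brain, and as mitochondrial ones, Ckmt2 of heart and skeletal muscle and Ckmt1 of most other tissues. Ckm lies at chr7:19404776-19422841 (GRCm38, plus strand), Ckmt2 at chr13:91853387-91876885 (minus strand), Ckb at chr12:111669361-111672338 (minus strand) and Ckmt1 at chr2:121357714-121363737 (plus strand). The coding sequences of Ckm and Ckb matched at 75.9% of 1143 aligned bases. No stretch of 150 bases, the read length, was shared between any pair of the 4 kinases, so that reads can be told apart between them. Of 1323 such stretches in the Ckb transcript, 101 (7.63%) also occurred in Gm12892, which had 5 to 19 counts per library. Ckm shared 2.47% of its stretches with the antisense gene A930016O22Rik, which overlaps 451 of its exon bases and had 37 to 501 counts, and Ckmt2 overlaps the antisense gene 1700119I11Rik by 84 exon bases. Whether the counting used strand is not given in the sources used here, so reads on these overlaps are uncertain.

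The promoters of Ckm, Ckmt2 and Ckb are shown because the ratios given below are between these genes. Whether these sequences bear on any change was not tested. Each window runs from 250 bases before the RefSeq transcript start to 50 bases after it, on the gene's strand (RefSeq, GRCm38.p6). Capitals mark matches, on either strand, to 5 motifs: the E-boxes CAGCTG and CACCTG, which factors of the MyoD and related families bind, the TATA box letters TATAAA, the nuclear receptor site AGGTCA, and TCAAGGTCA, its extended form bound by the ERR receptors, which contains AGGTCA. The windows are Ckm at chr7:19410844-19411143 (plus strand), Ckmt2 at chr13:91876836-91877135 (minus strand) and Ckb at chr12:111672289-111672588 (minus strand).
Ckm: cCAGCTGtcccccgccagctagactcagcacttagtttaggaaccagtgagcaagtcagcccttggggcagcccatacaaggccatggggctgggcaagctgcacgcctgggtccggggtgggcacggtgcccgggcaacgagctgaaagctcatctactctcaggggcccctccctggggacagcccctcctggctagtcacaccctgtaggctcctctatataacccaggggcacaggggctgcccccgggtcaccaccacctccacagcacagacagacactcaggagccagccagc
Ckmt2: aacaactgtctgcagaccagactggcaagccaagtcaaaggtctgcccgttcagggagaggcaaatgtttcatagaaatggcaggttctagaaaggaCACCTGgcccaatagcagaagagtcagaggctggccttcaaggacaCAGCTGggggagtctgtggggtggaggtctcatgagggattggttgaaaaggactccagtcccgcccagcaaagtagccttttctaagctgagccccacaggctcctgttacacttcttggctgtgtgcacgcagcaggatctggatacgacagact
Ckb: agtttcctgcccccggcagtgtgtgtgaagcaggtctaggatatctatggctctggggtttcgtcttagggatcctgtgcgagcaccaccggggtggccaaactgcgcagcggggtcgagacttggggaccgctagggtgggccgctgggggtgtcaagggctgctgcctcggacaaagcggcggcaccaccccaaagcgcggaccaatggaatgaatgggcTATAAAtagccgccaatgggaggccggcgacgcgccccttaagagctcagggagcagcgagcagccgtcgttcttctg

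In the Ckb window TATAAA began at base -28 from the start. Only these exact letters were searched, so that near forms, such as tatataa in the Ckm window, are not marked or counted. The marks therefore do not show that Ckm lacks a TATA box. Ckm held CAGCTG at base -249, and Ckmt2 held CACCTG at -153 and CAGCTG at -107. Windows were at hand for 9 of the 10 genes (13 windows, since Ak1 and Ckmt1 have several starts), and Slc6a8 had none. CAGCTG was in 5 of these 13 windows (of Ckm, Ckmt2, Ak1 and Ckmt1) and in 16.3% of all 32851 windows, and CACCTG in 4 of 13 (of Ckmt2, Ak1, Gatm and Slc25a5) and in 20.2%. TATAAA was in 3 of 13 (of Ckb, Ckmt1 and Ak1) and in 13.6% of all windows. AGGTCA was in 4 of 13 (of Gatm, Ak1 and Ckmt1) and in 16.3%, and TCAAGGTCA in 0 of 13 and in 0.423%. These are matches of letters only and do not show binding.

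Ckm, the muscle subunit that sits at the myofibrils, was at 1740.1, 1541, 1638 and 1645 CPM in Ctrl sham and at 1654, 1640.3, 1673 and 1558 in KO sham. After TAC it was at 1521, 1547, 1548 and 1389 CPM in Ctrl and at 1359.6, 1347, 1238 and 1249 in KO. The 4 KO TAC libraries lay under every other library, and Ctrl TAC overlapped with Ctrl sham in 2 libraries. In KO, Ckm fell with TAC by 0.33 ± 0.05 on the log2 scale (SE), or by 20.4% (adjusted p = 9.82e-05). In Ctrl its log2 change was -0.13 ± 0.05, with an adjusted p of 0.0989.

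Ckmt2, the octameric kinase of the space between the mitochondrial membranes, was at 1663, 1375, 1491 and 1489.6 CPM in Ctrl sham and at 1533, 1551, 1585 and 1470.4 in KO sham. After TAC it was at 1604, 1320.0, 1487 and 1502 CPM in Ctrl and at 1308, 1378, 1218 and 1313 in KO. The Ctrl groups overlapped in part, with Ctrl sham 1 above all Ctrl TAC libraries and Ctrl TAC 2 under all Ctrl sham libraries, while all 4 KO TAC libraries were under all 4 KO sham libraries. Ckmt2 fell in KO by 0.24 ± 0.06 on the log2 scale (adjusted p = 0.00813), and its log2 change in Ctrl was -0.03 ± 0.06 (adjusted p = 0.834). In the fit with a term for number series 33, the KO value was -0.21 with an adjusted p of 0.0874.

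Ckb, the brain subunit, was at 30.7, 32.0, 31.8 and 34.9 CPM in Ctrl sham and at 34.1, 34.5, 33.9 and 30.6 in KO sham. After TAC it was at 39.3, 41.0, 37.2 and 40.3 CPM in Ctrl and at 42.7, 51.3, 47.9 and 42.0 in KO. All TAC libraries were above all sham libraries, and all KO TAC libraries above all Ctrl TAC libraries. The rise with TAC was 0.29 ± 0.06 on the log2 scale in Ctrl (1.22-fold, adjusted p = 0.00397) and 0.47 ± 0.06 in KO (1.38-fold, adjusted p = 2.09e-05), and both calls held in each of 16 fits that left out 1 library.

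Ckmt1, the ubiquitous mitochondrial kinase, was at the edge of detection, with 7 to 16 counts per library in Ctrl sham, 0 to 26 in KO sham, 18 to 51 in Ctrl TAC and 25 to 44 in KO TAC. It was at 0.111 to 0.270 CPM in Ctrl sham and at 0.274 to 0.762 CPM in Ctrl TAC, which do not overlap. The highest value, 0.762 CPM, was that of Ctrl TAC 2, the library with traces of other tissues. The part of these traces in the Ckmt1 values was not tested. Its log2 changes with TAC, 1.55 ± 0.56 in Ctrl (adjusted p = 0.0626) and 0.79 ± 0.53 in KO (adjusted p = 0.276), did not pass the test. The change in Ctrl was called in 2 of 16 fits that left out 1 library and in 3 of 8 other alternative fits, DESeq2 among them. Its share of the creatine kinase transcripts was at most 0.0318% in any library.

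The ratio of Ckm to Ckb counts is free of library scaling. It was 56.7, 48.2, 51.6 and 47.1 in Ctrl sham, 48.5, 47.6, 49.4 and 51.0 in KO sham, 38.7, 37.7, 41.7 and 34.5 in Ctrl TAC and 31.8, 26.3, 25.8 and 29.7 in KO TAC. The sham groups overlapped, Ctrl TAC was under both of them, and KO TAC under Ctrl TAC, with no overlap at either step. On the log2 scale the mean ratio was 5.67 ± 0.12 (SD, n = 4) in Ctrl sham, 5.62 ± 0.04 in KO sham, 5.25 ± 0.11 in Ctrl TAC and 4.82 ± 0.14 in KO TAC. The differences were -0.42 for TAC against sham in Ctrl, -0.80 in KO, -0.43 for KO against Ctrl after TAC and -0.05 in sham. Without KO TAC 4 the value for TAC against sham in KO was -0.82 and that of KO against Ctrl after TAC -0.45. As the genes of the ratio were chosen for it, no test was made.

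The ratio of Ckmt2 to Ckb had the same order, with 42.7 to 54.2 in Ctrl sham, 45.0 to 48.1 in KO sham, 32.2 to 40.8 in Ctrl TAC and 25.4 to 31.2 in KO TAC. Its log2 difference was -0.31 in Ctrl, -0.70 in KO, -0.40 for KO against Ctrl after TAC and -0.01 for KO against Ctrl in sham. Without KO TAC 4 the value in KO was -0.75 and that of KO against Ctrl after TAC -0.44. Per length of transcript, Ckb made up 1.35% ± 0.13 (SD, n = 4) of the creatine kinase transcripts in Ctrl sham, 1.37% ± 0.04 in KO sham, 1.71% ± 0.14 in Ctrl TAC and 2.26% ± 0.22 in KO TAC (2.32% ± 0.23 without KO TAC 4, n = 3). The brain isoform thus stayed a small part of the pool even where it had risen. Per coding length the shares were 1.07%, 1.09%, 1.37% and 1.82%, in the same order.

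**Figure D2:**
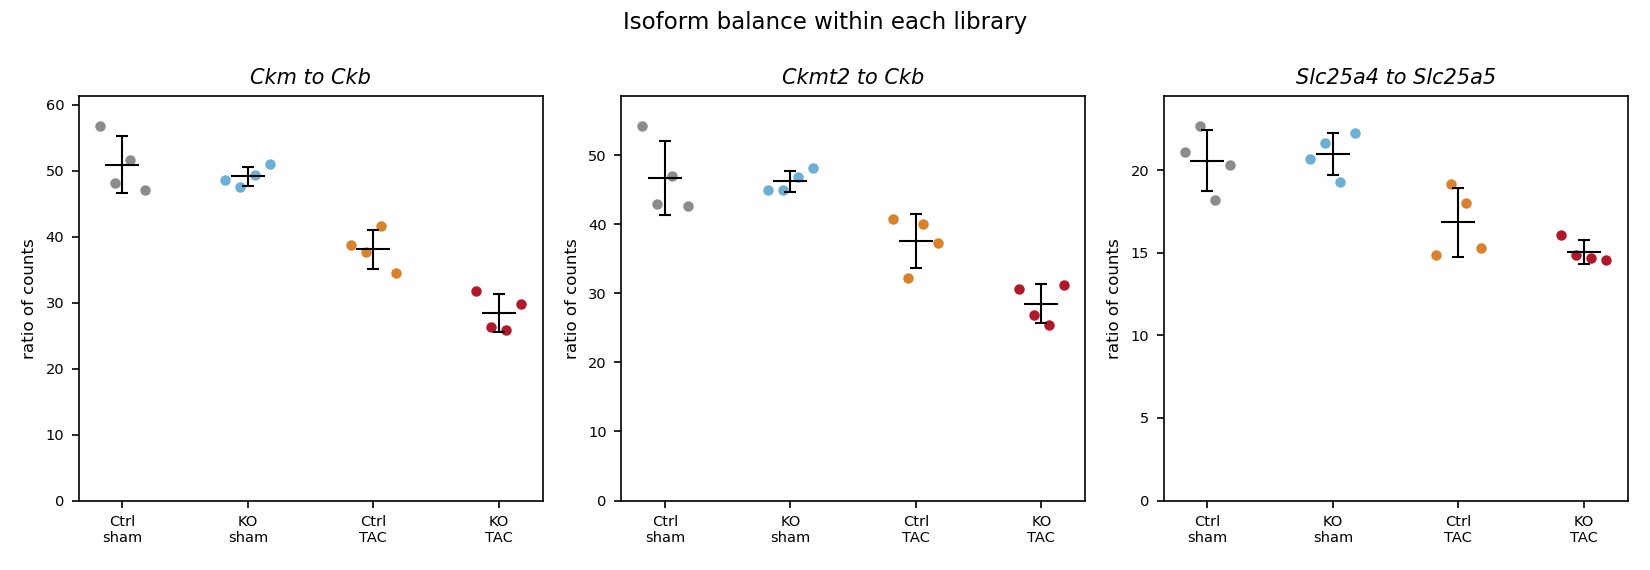
Ratio of counts within each library, on linear axes from 0, for Ckm to Ckb, Ckmt2 to Ckb and Slc25a4 to Slc25a5; points are libraries, and the line and bars are the mean and SD of 4 libraries. The ratio of Ckm to Ckb runs from 47.1 to 56.7 in Ctrl sham, from 34.5 to 41.7 in Ctrl TAC and from 25.8 to 31.8 in KO TAC.

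Creatine reaches the cell through Slc6a8, the sodium-coupled creatine transporter (chrX:73673150-73682502, plus strand). Slc6a8 was at 169, 178, 166 and 180.0 CPM in Ctrl sham, at 173, 184, 184 and 163 in KO sham, at 214, 205, 177 and 195 in Ctrl TAC and at 219, 210.4, 206 and 202 in KO TAC. Ctrl TAC 3 lay within the sham range, and the 4 KO TAC libraries were above all sham libraries. The rise was 0.19 ± 0.06 on the log2 scale in Ctrl (adjusted p = 0.0276) and 0.25 ± 0.06 in KO (adjusted p = 0.00264). The Ctrl call was lost when Ctrl sham 1, Ctrl sham 3, Ctrl TAC 1 or Ctrl TAC 2 was left out, with an adjusted p of up to 0.0967, and the KO call held without any 1 library.

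Gatm (chr2:122594467-122611303, minus strand) and Gamt (chr10:80258151-80261012, minus strand) are the enzymes of creatine synthesis, which is known mainly from kidney, pancreas and liver. Gatm, which makes guanidinoacetate, was at 1.38, 2.67, 2.01 and 1.66 CPM in Ctrl sham, at 1.71, 2.50, 1.77 and 2.60 in KO sham, at 2.62, 2.96, 2.23 and 2.72 in Ctrl TAC and at 3.16, 4.55, 4.33 and 3.05 in KO TAC. All KO TAC libraries were above all others, and the 2 sham groups spread widely. In KO the rise was 0.81 ± 0.20 on the log2 scale, or 1.76-fold (adjusted p = 0.00376), and in Ctrl the log2 change was 0.45 ± 0.20 (adjusted p = 0.133). With the series 33 term the KO value was 0.57 with an adjusted p of 0.117. Gamt, which methylates guanidinoacetate to creatine, was at 3.13 to 5.35 CPM over all 16 libraries, and its log2 changes with TAC of 0.23 ± 0.13 in Ctrl and 0.17 ± 0.13 in KO did not pass the test (adjusted p = 0.240 and 0.342).

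Ak1, the cytosolic adenylate kinase of muscle (chr2:32621758-32635058, plus strand), had 421, 398, 411 and 398 CPM in the Ctrl sham libraries, 411, 417, 380.2 and 415 in KO sham, 381, 464, 434 and 424 in Ctrl TAC and 375, 358, 353 and 377 in KO TAC. The KO TAC libraries were the lowest 4 of the 16, and Ctrl TAC 2 was the highest. Ak1 fell with TAC in KO by 0.15 ± 0.05 on the log2 scale (adjusted p = 0.0434), a call that held in 5 of 16 fits that left out 1 library. It held without KO TAC 4 (adjusted p = 0.0495). In Ctrl the log2 change was 0.07 ± 0.05 (adjusted p = 0.450), which turned to -0.04 with the series 25 term.

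Slc25a4, the adenine nucleotide translocase of heart and skeletal muscle (chr8:46206797-46211284, minus strand), was the most abundant gene of the set. It was at 4012, 3645, 3467 and 3911 CPM in Ctrl sham, at 3957, 3805, 4002 and 3835 in KO sham, at 3560.15, 3600.1, 3604 and 3287 in Ctrl TAC and at 3109, 3310.3, 3103 and 3211 in KO TAC. KO TAC did not overlap with KO sham, while Ctrl TAC overlapped with Ctrl sham and with KO TAC. The fall in KO was 0.29 ± 0.05 on the log2 scale, or 18.4% (adjusted p = 0.000301), and the log2 change in Ctrl was -0.10 ± 0.05 (adjusted p = 0.219).

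Slc25a5, the translocase of most other and of dividing cells (chrX:36795651-36798807, plus strand), had 190.2, 161, 190.1 and 192 CPM in the Ctrl sham libraries, 191, 176, 207 and 172 in KO sham, 239, 187, 200.1 and 215 in Ctrl TAC and 193, 223, 211 and 220.0 in KO TAC. The groups overlapped, and the log2 changes with TAC of 0.20 ± 0.08 in Ctrl and 0.18 ± 0.08 in KO did not pass the test (adjusted p = 0.0887 and 0.0851). The coding sequences of Slc25a4 and Slc25a5 matched at 77.4% of 894 bases and shared no stretch of 150 bases. At 75 bases, 27.9% of the Slc25a5 transcript also occurred in 6 other genes, each with at most 118 counts per library, so that short or clipped reads could be split among them. The ratio of Slc25a4 to Slc25a5 counts ran from 18.2 to 22.7 in Ctrl sham, from 19.3 to 22.3 in KO sham, from 14.9 to 19.2 in Ctrl TAC and from 14.6 to 16.1 in KO TAC. Its log2 difference for TAC against sham was -0.29 in Ctrl, where the groups overlapped, and -0.48 in KO, where they did not (-0.46 without KO TAC 4). For KO against Ctrl it was 0.03 in sham and -0.15 after TAC, and the latter was -0.14 without KO TAC 4 and -0.07 without Ctrl TAC 2 and KO TAC 4 together.

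**Figure D3:**
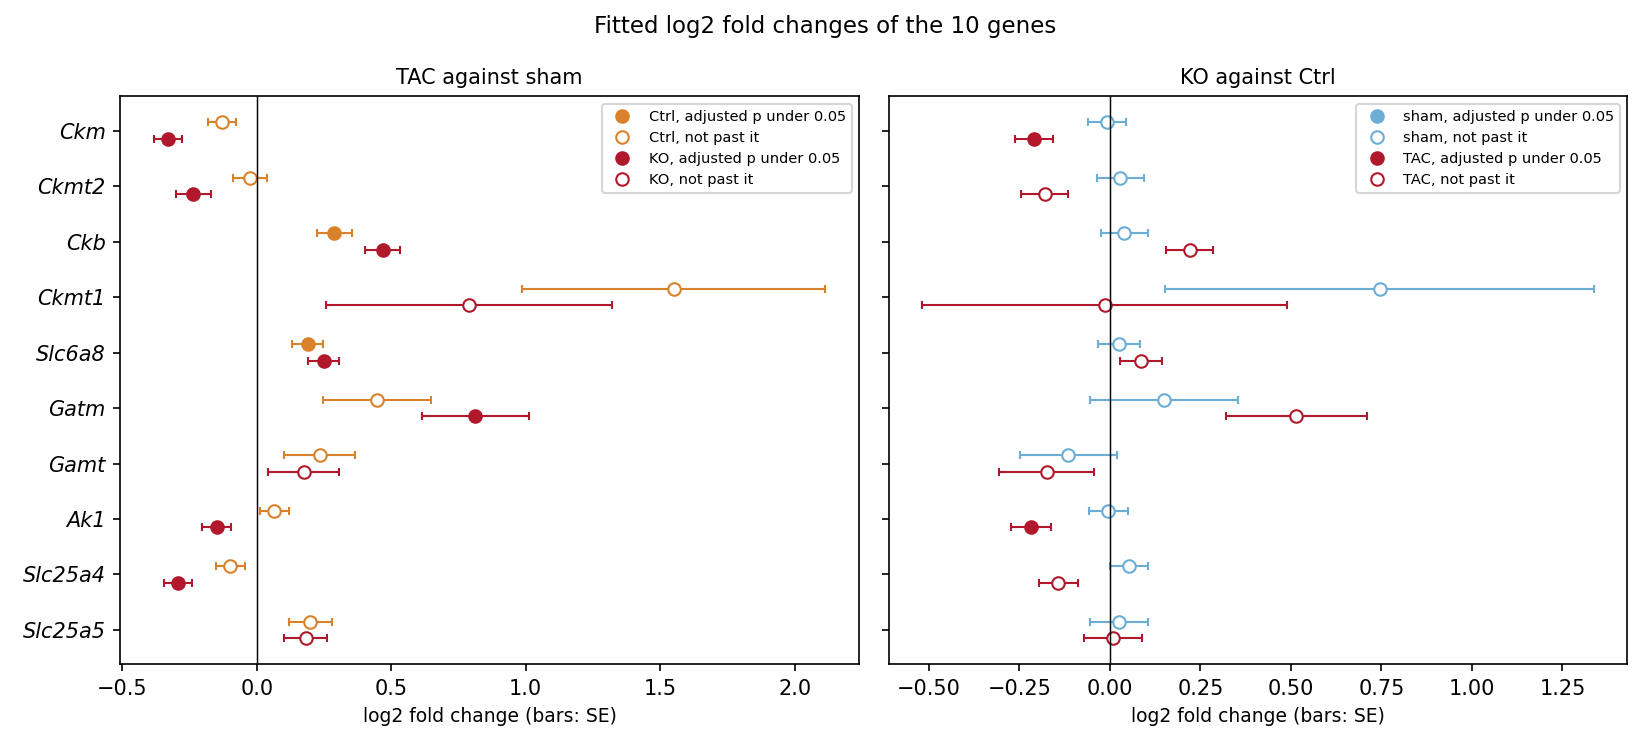
Fitted log2 fold changes with their SE (bars) for TAC against sham in Ctrl and KO (left) and for KO against Ctrl in sham and after TAC (right); filled points passed an adjusted p of 0.05. Ckm is at -0.13 in Ctrl and at -0.33 in KO for TAC against sham, and Ckb at 0.29 and 0.47.

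Without KO TAC 4, the library that held CARDINAL counts, 7 of 10 genes were again called for TAC against sham in KO, the same 7, with log2 values of -0.31 for Ckm, -0.24 for Ckmt2, 0.51 for Ckb, 0.27 for Slc6a8, 0.90 for Gatm, -0.16 for Ak1 and -0.30 for Slc25a4. In the fit with a term for number series 33, 4 were called, and Ckmt2, Gatm and Ak1 were not. Both TAC contrasts have their own sham groups and share no library.

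Whether the deletion changed the set before any load was asked by comparing the sham groups. 0 of 10 genes were called by edgeR's quasi-likelihood test, as were 0% of all genes, 0 of 10 had an unadjusted p under 0.05, and DESeq2 called 0 of 10. The log2 differences of the 9 genes other than Ckmt1 lay between -0.12 (Gamt, SE 0.13) and 0.15 (Gatm, SE 0.20), and that of Ckmt1 was 0.75 ± 0.59. For Ckm it was -0.01 ± 0.05 and for Ckb 0.04 ± 0.07 (log2, SE).

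After TAC, KO was compared with Ctrl to ask whether levels in the loaded heart differed between the genotypes. Ckm was lower in KO by 0.21 ± 0.05 on the log2 scale (adjusted p = 0.0422), and Ak1 was lower by 0.22 ± 0.05 (adjusted p = 0.0414). Ckb had a log2 difference of 0.22 ± 0.06 with an adjusted p of 0.0703, and Gatm of 0.52 ± 0.20 with 0.159. For both the groups did not overlap, but the share of all genes without overlap was not counted. DESeq2 called Ckb as well (adjusted p = 0.0325). Ckmt2 was at -0.18 ± 0.06 (adjusted p = 0.134), Slc25a4 at -0.14 ± 0.05 (adjusted p = 0.152), Slc6a8 at 0.08 ± 0.06, Gamt at -0.17 ± 0.13, Slc25a5 at 0.01 ± 0.08 and Ckmt1 at -0.01 ± 0.50.

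These calls were not stable. Of the 16 fits without 1 library, 5 called Ckm and 4 called Ak1. Without KO TAC 4, Ckm was at -0.19 (adjusted p = 0.0927), Ak1 at -0.23 (adjusted p = 0.0508) and Ckb at 0.26 (adjusted p = 0.0471), so that the call passed to Ckb. Without Ctrl TAC 2 and KO TAC 4 together, 0 of 10 were called. Ctrl TAC 2 had the highest Ak1 of all libraries and the highest skeletal muscle markers. The part of these traces in the Ak1 difference was not tested.

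The number series and the genotype were also mixed in this comparison, since 3 of 4 Ctrl TAC libraries and 1 of 4 KO TAC libraries belonged to series 25. Within series 25, Ckm in KO TAC 4 (1249 CPM) was under Ctrl TAC 2, 3 and 4 (1389 to 1548), and outside it KO TAC 1, 2 and 3 (1238 to 1359.6) were under Ctrl TAC 1 (1521). For Ak1 the values were 377 CPM against 424 to 464 within the series, and 353 to 375 against 381 outside it. KO TAC 4, the only KO TAC library of the series, is also the one that held CARDINAL counts against its label. Outside the series, Ctrl TAC 1 is the only Ctrl TAC library. With a single library of a genotype on either side, these values cannot tell number series from genotype. With the series as a term in the fit, Ckm was at -0.23 (adjusted p = 0.114) and Ak1 at -0.15 (adjusted p = 0.274).

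Whether the effect of TAC itself differed between genotypes was tested with the interaction term. 0 of 10 genes were called by edgeR, with a background of 0.0109%, 0 by DESeq2 and 0 by edgeR without KO TAC 4. At an unadjusted p under 0.05 there were 4 of 10, against 2024 of the 18275 genes. They were the 4 genes that fell in KO, with log2 interaction values of -0.20 ± 0.07 for Ckm, -0.21 ± 0.09 for Ckmt2, -0.21 ± 0.08 for Ak1 and -0.20 ± 0.07 for Slc25a4, and their adjusted p in edgeR's quasi-likelihood test ran from 0.322 to 0.401. Genes called in KO and not in Ctrl are therefore not shown to respond differently in the genotypes.

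Levels of some cell type markers moved with the same groups. As given above, 10.4% of all genes were called higher and 9.6% lower with TAC in Ctrl, and 17.8% and 16.5% in KO. Of 10 cardiomyocyte markers, which include none of the 10 genes, 5 were called lower and 1 higher with TAC in Ctrl, and 7 lower and 0 higher in KO, and their median log2 change was -0.19 and -0.39. The summed level of these markers ran from 62565 to 71130.4 CPM in Ctrl sham, from 64054 to 69514 in KO sham, from 55942 to 60107 in Ctrl TAC and from 50142 to 51053 in KO TAC. Myh6 was the largest part of this sum. Its mean was 24607 CPM in Ctrl sham, 23722 in KO sham, 20046 in Ctrl TAC and 15336 in KO TAC. The sum is therefore weighted towards this gene. The log2 values in KO were -0.33 (Ckm), -0.29 (Slc25a4), -0.24 (Ckmt2) and -0.15 (Ak1), beside the marker median of -0.39. The markers were not alike. In KO 7 of the 10 were called lower. Mean Actc1, though, was 7142 CPM in KO sham and 7445 in KO TAC, and mean Tnnc1 1612 and 1675. Of 10 fibroblast markers, 5 were called higher in Ctrl and 9 in KO, with medians of 0.55 and 0.88 and summed levels of 1294 to 1506 CPM in Ctrl sham, 1361 to 1413 in KO sham, 1766 to 2344 in Ctrl TAC and 2540.2 to 2791 in KO TAC. Of 10 macrophage markers, 5 and 9 were called higher. Of 10 endothelial markers 0 were called by edgeR in either genotype, with median log2 changes of 0.01 in Ctrl and 0.02 in KO. Of 8 smooth muscle markers 2 were called higher and 1 lower in Ctrl, and 3 and 1 in KO. Without KO TAC 4 the KO counts of these 5 lists were as with it. In bulk tissue, fewer cells of a type and less RNA per cell cannot be told apart, and the part of cell composition in the changes of the 10 genes was not tested.

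**Figure D4:**
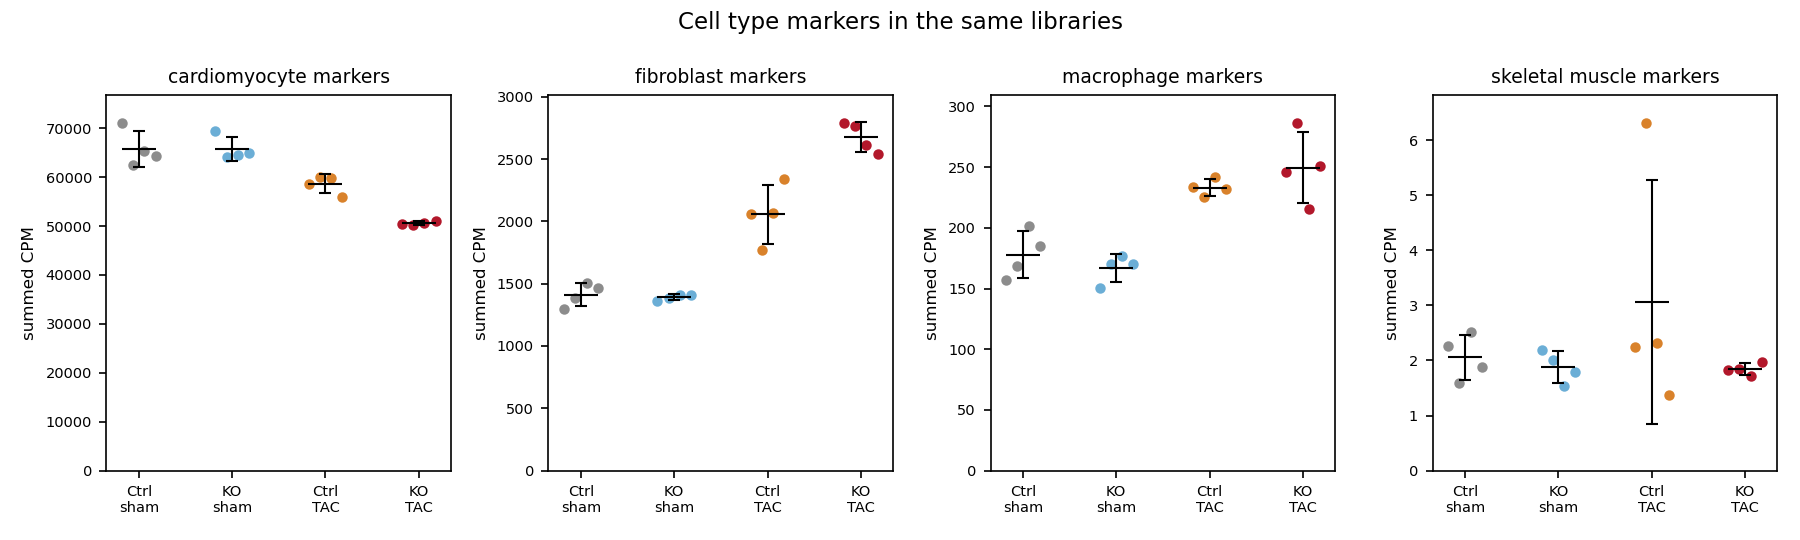
Summed CPM of 4 lists of cell type markers in each library, on linear axes from 0; points are libraries, and the line and bars are the mean and SD of 4 libraries. The cardiomyocyte sum is 50142 to 51053 CPM in KO TAC against 55942 to 60107 in Ctrl TAC, and Ctrl TAC 2 has the highest skeletal muscle sum, 6.32 CPM. Myh6 is the largest part of the cardiomyocyte sum, with a mean of 20046 CPM in Ctrl TAC and 15336 in KO TAC.

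Other genes that handle adenine nucleotides and phosphate were counted in 5 lists, to be read against the same shares of all genes, 10.4% higher and 9.6% lower in Ctrl and 17.8% and 16.5% in KO. The lists hold few genes, and nothing particular to a list is read from counts this small. Genes named from them are those with the highest or lowest called log2 change among those whose mean log2 CPM over the libraries reached 2. A gene named in a single genotype may have moved alike in the other. Of 12 tested genes for the remaining mitochondrial carriers of nucleotides and phosphate and the porins of the outer membrane, 5 were called lower and 1 higher in Ctrl, and 5 lower and 2 higher in KO, and the median log2 change was -0.16 and -0.23. The rises, 1 and 2 of 12, were near the share of all genes. Without KO TAC 4 the KO counts were 5 lower and 3 higher. The lowest called values were those of Slc25a42, a carrier of coenzyme A and adenine nucleotides, in Ctrl (-0.63 ± 0.13, adjusted p = 0.00361) and of Slc25a33, a pyrimidine nucleotide carrier, in KO (-0.94 ± 0.16, adjusted p = 0.000394). The highest called values were those of the calcium-sensitive ATP-Mg carriers Slc25a23 in Ctrl (0.25 ± 0.06, adjusted p = 0.00930) and Slc25a24 in KO (0.37 ± 0.09, adjusted p = 0.00514). In the other genotype the means of each of these carriers moved in the same direction. Mean CPM in sham and after TAC was 62.4 and 35.0 for Slc25a42 in KO, and 23.1 and 15.5 for Slc25a33 in Ctrl. It was 37.5 and 45.7 for Slc25a23 in KO, and 7.45 and 8.10 for Slc25a24 in Ctrl.

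Of 5 tested adenylate kinases other than Ak1, 1 was called in each genotype, the mitochondrial matrix enzyme Ak4, which fell by 0.27 ± 0.07 in Ctrl (adjusted p = 0.00729) and by 0.32 ± 0.07 in KO (adjusted p = 0.00121). Among 7 nucleoside diphosphate kinases, Nme1 rose by 0.59 ± 0.09 in both Ctrl (adjusted p = 0.000222) and KO (adjusted p = 8.15e-05). It was the only one of the 7 called in Ctrl, and 2 others were called lower in KO (1 without KO TAC 4). The shares of all genes were 10.4% higher and 9.6% lower in Ctrl, and 17.8% and 16.5% in KO.

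Of 15 tested genes of AMP and adenosine metabolism, 2 were called higher and 1 lower in Ctrl, and 4 and 4 in KO. Of all genes, 10.4% were called higher and 9.6% lower in Ctrl, and 17.8% and 16.5% in KO. Entpd1, the surface enzyme CD39 that removes phosphates from extracellular ATP, rose by 0.47 ± 0.09 in Ctrl (adjusted p = 0.000731) and by 0.66 ± 0.09 in KO (adjusted p = 1.05e-05). Adk, which returns adenosine to AMP, fell by 0.21 ± 0.06 in Ctrl (adjusted p = 0.0188), and Nt5c1a, which cuts AMP to adenosine in the cytosol of muscle, by 0.55 ± 0.16 in KO (adjusted p = 0.0106). In the other genotype both means also went down with TAC. Mean Adk in KO was 130 CPM in sham and 113 after TAC, and mean Nt5c1a in Ctrl was 10.8 and 9.52 CPM.

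AMP-activated protein kinase senses the AMP that adenylate kinase makes. Of its 7 subunit genes, 3 were called higher and 2 lower in Ctrl, and 2 higher and 1 lower in KO. The background over all genes was 10.4% higher and 9.6% lower in Ctrl, and 17.8% and 16.5% in KO. The regulatory subunit Prkab2 rose by 0.41 ± 0.07 in Ctrl (adjusted p = 0.000393) and by 0.72 ± 0.07 in KO (adjusted p = 3.82e-07). Prkab1 fell by 0.55 ± 0.10 in Ctrl (adjusted p = 0.000978), and Prkag1 by 0.38 ± 0.05 in KO (adjusted p = 1.43e-05). Mean Prkab1 in KO was 21.2 CPM in sham and 19.4 after TAC, and mean Prkag1 in Ctrl was 67.6 and 57.1 CPM. For KO against Ctrl, 0 genes of these 5 lists were called by edgeR in sham or after TAC, and 0 after TAC without KO TAC 4.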

How the data were processed

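Gene counts were the deposited values: per the labels, the authors trimmed the reads with cutadapt 2.3, checked them with FastQC, aligned them with HISAT2 2.1.0 to GRCm38 and used edgeR 3.26.1, while the counting program, its annotation and its strand setting are not given in the sources used here. The table holds whole-number counts, not normalized, for 16 libraries, each mapped to its group by its genotype and treatment labels. Identifiers were matched to GENCODE M21 (99.5% of 55487). No pair of replicates agreed within sampling noise. From the counts, edgeR 4.0.16 (R 4.3.3) was run with TMM scaling, its default filter on low counts and a robust quasi-likelihood fit of 1 mean per group over all 16 libraries, with contrasts between the group means and Benjamini-Hochberg adjustment over all 18275 genes. The fit was tested on simulated data. DESeq2 1.42.0, other scaling, other filters, the number series as terms and fits without 1 library were alternatives. CPM are counts in 1000000 of the TMM-scaled library size. Ratios are of counts within a library, without a test. The genes named were the 10 members and, of each pathway list and TAC contrast, the called genes with the largest rise and fall at an average log2 CPM of at least 2. Of the marker lists, Myh6, Actc1 and Tnnc1 were named, chosen after their levels were seen. Members, lists and tests were chosen with earlier results of these data known. With counts of 0 to 51 per library, Ckmt1 carries a large counting error.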

Additional observations from a re-analysis of the deposited data

Results flagged for a closer look

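In 6 of 52 groups of 4 libraries (10 genes and 3 ratios in 4 groups each), 1 library lay far from the other 3 by Dixon's test, which chance alone does in about 1 of 20 groups. In Ctrl TAC 4, Ckm was at 1389 CPM and Slc25a4 at 3287 CPM, each the lowest of its group, and the cardiomyocyte markers of that library summed to 55942 CPM, also the lowest of Ctrl TAC. Ckmt1 in Ctrl sham 3 was at 0.270 CPM, the highest of its group, on 16 counts. Ckb in KO sham 4, the only KO sham library outside number series 33, was at 30.6 CPM, the lowest of its group. Ak1 in KO sham 3 was at 380.2 CPM and Slc25a5 in Ctrl sham 2 at 161 CPM, both the lowest of their groups. No gene of the 10 had an interaction of genotype and surgery past the threshold, with an adjusted p of at least 0.322.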

How the results depend on the processing

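The number of genes called of 10 was 2 for TAC against sham in Ctrl (1 to 3 over the fits without 1 library), 7 in KO (6 to 8) and 2 for KO against Ctrl after TAC (0 to 2). In sham and for the interaction it was 0 in every fit made. DESeq2 and the series 33 term each gave 3 in Ctrl, with Ckmt1 added, and 3 for KO against Ctrl after TAC, with Ckb added. The KO count fell to 4 with series 33 as a term. For KO against Ctrl after TAC it was 0 without a filter, with series 25 as a term, with only the 8 libraries compared, and without Ctrl TAC 2 and KO TAC 4 together; over all genes, the series 25 term left 6 higher and 6 lower of 248 and 241. The log2 ratios moved by less than 1 SD, pooled over both groups compared. In sham they changed sign over the fits without 1 library, within -0.083 to 0.0059 (Ckm to Ckb), -0.049 to 0.066 (Ckmt2 to Ckb) and -0.027 to 0.078 (Slc25a4 to Slc25a5). Of 1235 alternative values of single genes, 1130 kept direction and side of the threshold, 52 lost the call, 13 gained one and 40 changed sign, all of these among values not called. With series 25 as a term, log2 values became 0.028 for Ckmt2 and -0.038 for Ak1 (TAC in Ctrl), 0.045 for Ckmt1 and -0.032 for Slc25a5 (KO against Ctrl after TAC) and 0.057 for Gamt (interaction). Without Ctrl TAC 2 and KO TAC 4 together they were 0.025 for Ckmt2, 0.25 for Ckmt1, -0.062 for Slc25a5 and 0.044 for Gamt in the same comparisons. With series 33 as a term they were -0.20 for Ckmt1, -0.038 for Ckb, -0.030 for Slc6a8, 0.018 for Ak1 and -0.037 for Slc25a5 (sham), and 0.19 for Ckmt1 and 0.046 for Slc25a5 (interaction). Without a filter, Ckmt1 was at 1.5e-05 (KO against Ctrl after TAC). Over the fits without 1 library, signs changed within -0.067 to 0.025 for Ckmt2 (TAC in Ctrl); -0.037 to 0.021 for Ckm, -0.012 to 0.081 for Ckmt2, -0.018 to 0.026 for Ak1 and -0.033 to 0.061 for Slc25a5 (sham); -0.20 to 0.32 for Ckmt1 and -0.043 to 0.076 for Slc25a5 (KO against Ctrl after TAC); and -0.17 to 0.028 for Gamt and -0.068 to 0.051 for Slc25a5 (interaction). The cause of these shifts was not tested. With the union of exons as length, chosen after seeing the data, the Ckb share of creatine kinase transcripts was 0.707% in Ctrl sham and 1.19% in KO TAC. No paired analysis was possible because the labels give no replicate numbers shared between groups. Depth limits Ckmt1, with 0 to 51 counts per library.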
